A study of Mus musculus with 6 samples.

Results

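Macrophages both build and cut the extracellular matrix. Transcripts of 10 genes of these functions were followed in sorted peritoneal macrophages (PMs): the matrix proteins Fn1, Prg4, Ecm1 and Ltbp1, the matrix metalloproteinases Mmp14, Mmp9, Mmp12 and Mmp19, and the metalloproteinase inhibitors Timp1 and Timp2. The 10 genes were chosen by name, with earlier results of these data known, and all were found among the 32879 genes of the libraries. Of these 10, 8 passed the filter on low counts, as did 10505 genes in all, and Mmp12 and Timp1 did not. RNA came from PMs sorted as CD11b+ F4/80+ cells from 3 age-matched control mice and 3 diseased-BWF1 mice, all female, and each mouse gave 1 library. Control mice were [NZW×BALB/c]F1 animals, which are not prone to lupus, aged 33, 33 and 30 weeks. The diseased-BWF1 mice were [NZB×NZW]F1 animals, which develop lupus spontaneously, aged 31, 31 and 34 weeks, and they had high titres of anti-dsDNA antibody and severe proteinuria. The labels name no treatment and no engineered allele for either group. The groups shared the NZW parent and differed in the other one, so disease and strain cannot be told apart. Values are estimated counts per transcript record (Salmon), summed per gene and divided by DESeq2's size factors (normalized counts), and errors are SDs over 3 mice.

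The matrix is a mesh of secreted proteins that anchors cells and stores growth factors. Metalloproteinases are zinc enzymes, made as inactive proenzymes, that cleave matrix proteins and proteins of the cell surface, and TIMPs bind their active sites and block them. Resident macrophages of the peritoneum are known to secrete large amounts of fibronectin, which coats surfaces and bridges cells to other matrix proteins through integrins.

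The libraries held 3629901 to 5003360 counts, of which 89.1% to 93.0% lay on genes, and 3 counts corresponded to 0.652 to 0.888 CPM (counts scaled to a common total on genes). That floor covers counting error only. The labelled cell type was checked with marker genes. All 8 macrophage markers were detected, with Adgre1, which encodes F4/80, at 7060 to 8562 normalized counts and Itgam, which encodes CD11b, at 20818 to 27725. The list summed to 138659 to 188912 normalized counts in control and 120048 to 138355 in diseased-BWF1 mice, lower in each of the latter. Of the 8 markers 0 were called, and 5 had positive and 3 negative log2 fold changes, with a median of 0.27. Without overlap, 3 were lower and 1 higher, against 11.2% and 9.59% of all genes tested. Summed markers of other cells stayed low, with mesothelial markers at 0 to 2.48 normalized counts in control and 0 to 2.03 in diseased-BWF1 mice, and fibroblast markers at 13.4 to 19.5 and 15.2 to 37.3. Neutrophil markers summed to 9.93 to 17.2 and 12.2 to 18.2, and the defining genes Ly6g, Msln and Col3a1 were at 0 in all 6 libraries. The T cell, eosinophil, mast cell and red cell lists each summed to at most 16.996 in any mouse. Markers of large peritoneal macrophages summed to 50747 to 58038 in control and 40454 to 51430 in diseased-BWF1 mice, with 0 of 8 called. Their log2 fold changes were positive for 2 and negative for 6, and 3 were lower and 0 higher without overlap. Of the monocyte and small macrophage list 5 of 8 were tested and 1 was called higher, against 0.4% of all genes tested. Log2 fold changes were positive for 4 and negative for 1, with a median of 1.32, while the list summed to 2052 to 5018 and 681 to 3660. The platelet list summed to 1194 to 3018 and 785 to 1039. Only 1 of its 6 genes passed the low-count filter, with log2 fold change -1.16 and an adjusted p of 0.176 by edgeR's quasi-likelihood test. What part these differences had in the results was not tested. In bulk RNA, fewer cells of a kind and less RNA per cell cannot be told apart.

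Levels of different genes were compared as CPM per kilobase of the longest coding transcript. On this scale the matrix proteins and Timp2 stood far above the proteases. Fn1 averaged 6582 ± 1439 CPM per kilobase in control and 8142 ± 288 in diseased-BWF1 mice (SD, n = 3). Prg4 followed at 3838 ± 228 and 4706 ± 905, and Ecm1 at 1493 and 1456. Timp2 came next at 527 and 418, then Ltbp1 at 105 and 81.3, and Mmp19 at 17.2 and 13.1. The order of these 6 genes was the same in every mouse, with each gene above the next by 1.37 times (Fn1 over Prg4 in control mouse 3) or more. The lowest places were not fixed, since Mmp9 exceeded Mmp14 by 4.52 to 9.79 times in the control mice, while in the diseased-BWF1 mice the ratio of Mmp9 to Mmp14 was 0.381, 0.451 and 1.11.

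**Figure D1:**
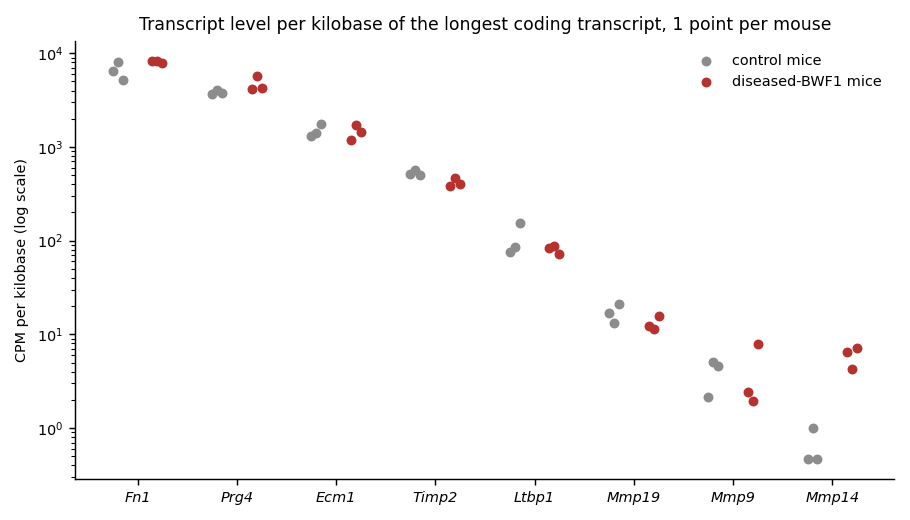
Transcript level of 8 matrix genes in CPM per kilobase on a log axis, with 1 point per mouse, control in grey and diseased-BWF1 in red. Fn1, Prg4, Ecm1 and Timp2 lie well above the proteases in every mouse, and Mmp14 is the gene whose groups stand furthest apart. Mmp12 and Timp1 are left out because some libraries had no count for them.

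Of the 10 genes, 1 was called higher in diseased-BWF1 mice, Mmp14, and 0 were called lower by edgeR's quasi-likelihood test. A call needed a Benjamini-Hochberg adjusted p below 0.05 together with a change of 1.5-fold or more. Over all 10505 genes, 0.4% were called higher and 0.819% lower. At an unadjusted p under 0.05 the same test took 1 of the 8, against 13.2% of all genes, and DESeq2 took 2, against 11.1%. The groups did not overlap for Mmp14 and Prg4, which were higher in every diseased-BWF1 mouse than in any control mouse, and for Timp2, which was lower, while of all genes tested 20.8% had groups that did not overlap, 9.59% with diseased-BWF1 mice higher and 11.2% with them lower. The median log2 fold change was 0.02 over the 8 genes and 0.01 over all genes tested. An exact permutation test of 3 mice against 3 cannot give a p below 0.1.

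**Figure D2:**
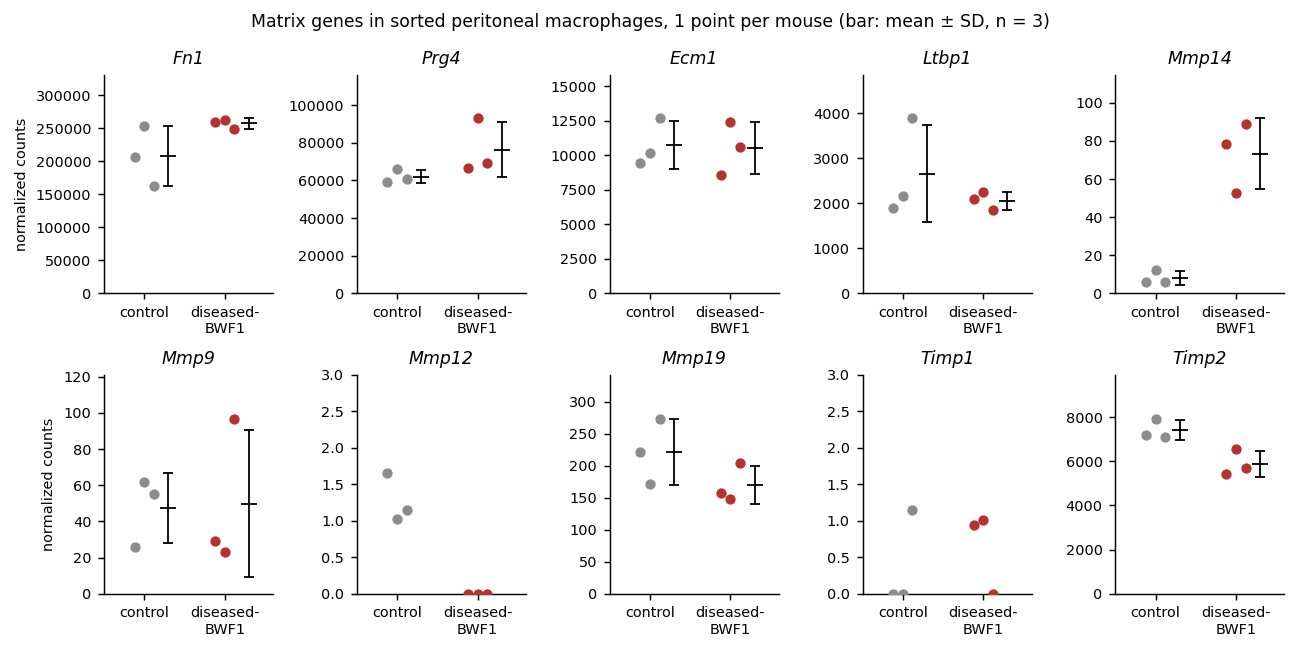
Normalized counts of the 10 matrix genes, 1 panel per gene with its own axis from 0 and 1 point per mouse, with the mean ± SD (n = 3) beside the points of the 8 genes tested. Mmp14 lies at 5.74 to 12.3 in control and 52.7 to 88.8 in diseased-BWF1 mice, and Mmp12 and Timp1 stay below 2 in every mouse.

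Fn1 encodes fibronectin (chr1:71585520-71653200, minus strand, GRCm38), and its transcripts made up 4.20% to 7.06% of all counts on genes in a library. Normalized counts were 205863, 253958 and 162879 in control mice and 260129, 263153 and 248453 in diseased-BWF1 mice. All 3 diseased-BWF1 mice lay close together near the level of control mouse 2, and the control mice spread more widely, so the groups overlapped. The log2 fold change was 0.31 ± 0.21 (SE), with an adjusted p of 0.587 in edgeR's quasi-likelihood test.

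Fn1 is spliced in 3 places. The EDA and EDB exons, each a fibronectin type III repeat, are kept or skipped whole. The V segment is kept whole (V120), without its first 75 bases (V95) or not at all (V0), and the 75 bases that only V120 holds are known to encode a binding site for the integrin formed by Itga4 and Itgb1, which leukocytes carry. The EDA exon and the V segment, on which the shares given next turn, are printed as mRNA-sense sequence from the GENCODE transcripts. The EDA exon (270 bases) lies at chr1:71603660-71603929 and the V segment (360 bases) at chr1:71597388-71597747, both on the minus strand of GRCm38. The V segment is given as its first 75 bases, in capitals because only V120 forms carry them (chr1:71597673-71597747), and the 285 bases that follow (chr1:71597388-71597672).
EDA exon: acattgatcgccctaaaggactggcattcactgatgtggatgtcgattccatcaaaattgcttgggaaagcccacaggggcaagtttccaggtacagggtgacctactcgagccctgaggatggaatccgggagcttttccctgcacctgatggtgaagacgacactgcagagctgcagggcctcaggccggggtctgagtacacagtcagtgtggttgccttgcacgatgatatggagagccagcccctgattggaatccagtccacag
V segment, bases only in V120: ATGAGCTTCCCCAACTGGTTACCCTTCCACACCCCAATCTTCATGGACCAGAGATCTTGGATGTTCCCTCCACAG
V segment, bases shared by V120 and V95: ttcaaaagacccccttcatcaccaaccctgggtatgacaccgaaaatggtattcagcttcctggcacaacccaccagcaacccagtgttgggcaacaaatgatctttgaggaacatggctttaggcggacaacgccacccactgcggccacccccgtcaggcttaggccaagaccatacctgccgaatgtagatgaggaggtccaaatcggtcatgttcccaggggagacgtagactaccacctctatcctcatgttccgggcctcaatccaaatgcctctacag

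The 7 curated Fn1 records, which took 98.5% to 99.2% of the gene's counts, each matched 1 GENCODE transcript and thus 1 combination of these choices. V120 forms held 45.0%, 44.3% and 47.2% of these counts in control mice and 54.8%, 59.2% and 58.3% in diseased-BWF1 mice. V95 forms held 43.3%, 43.9% and 44.3% against 38.2%, 35.4% and 36.6%. V0 forms, which lack the whole segment, held 11.7%, 11.7% and 8.57% against 7.05%, 5.39% and 5.12%. Every diseased-BWF1 mouse thus had a larger share of V120 and smaller shares of V95 and V0 than any control mouse. Mean shares in control and diseased-BWF1 mice were 45.5% ± 1.49 and 57.4% ± 2.35 for V120, 43.8% ± 0.498 and 36.7% ± 1.40 for V95, and 10.7% ± 1.83 and 5.85% ± 1.04 for V0 (SD, n = 3). The exact permutation p was 0.1 for each of the 3 shares, the smallest the design allows. Across all records of genes with several, 12.2% had shares that did not overlap between the groups.

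In normalized counts the V forms also differed in how far the groups lay apart. Normalized counts of V120 forms were 91614, 111586 and 76238 in control and 140376, 154175 and 142871 in diseased-BWF1 mice, a ratio of means of 1.57, and the groups did not overlap. V95 forms had a ratio of 1.04 and V0 forms of 0.664, and for both the groups overlapped. Counts on V120 forms were 1.01 to 1.07 times those on V95 forms in control mice and 1.43 to 1.67 times in diseased-BWF1 mice.

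Forms with the EDA exon, printed above, held 13.5%, 12.9% and 10.7% of the curated Fn1 counts in control mice and 18.3%, 14.96% and 18.3% in diseased-BWF1 mice. The share was higher in each diseased-BWF1 mouse than in any control mouse, at 12.4% ± 1.48 against 17.2% ± 1.92 (exact permutation p = 0.1, n = 3). Normalized counts of the forms with EDA had a ratio of means of 1.69 and did not overlap, and those of the forms without it had a ratio of 1.17 and overlapped. Within V120, V95 and V0 forms taken apart, the EDA share of a mouse differed little, for example 13.6%, 13.4% and 13.2% in control mouse 1. The EDA exon and the V segment are separated by 813 bases of mRNA and 6 exons, so the short paired reads did not show which EDA and V choices lay in 1 molecule. The record with the EDB exon (chr1:71613763-71614035, 273 bases) had 0 counts in all 6 mice. A floor of 3 counts would be 0.00111% to 0.00213% of the curated Fn1 counts. Only reads that touch this exon or its junctions identify the record, so the share of EDB forms is bounded less tightly.

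Record usage was also compared across genes with edgeR's diffSpliceDGE, which asks whether a gene's records change relative to the gene as a whole, and 1.23% of 4069 genes passed. Fn1 did not pass, with a Benjamini-Hochberg adjusted p of 0.126 over these genes. With each mouse left out in turn, Fn1 passed only without control mouse 3 (adjusted p = 0.0105), and the other fits gave 0.201 to 0.738. It did not pass with records of at least 5% of their gene (0.0531) or with the replicate number as a block (0.376). No single Fn1 record passed, with a diffSpliceDGE adjusted p of 0.9999 for each record tested. The shares come from Salmon's division of reads between overlapping records, and the error of that division is not among the values used here. These comparisons of records were chosen after the data were seen.

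**Figure D3:**
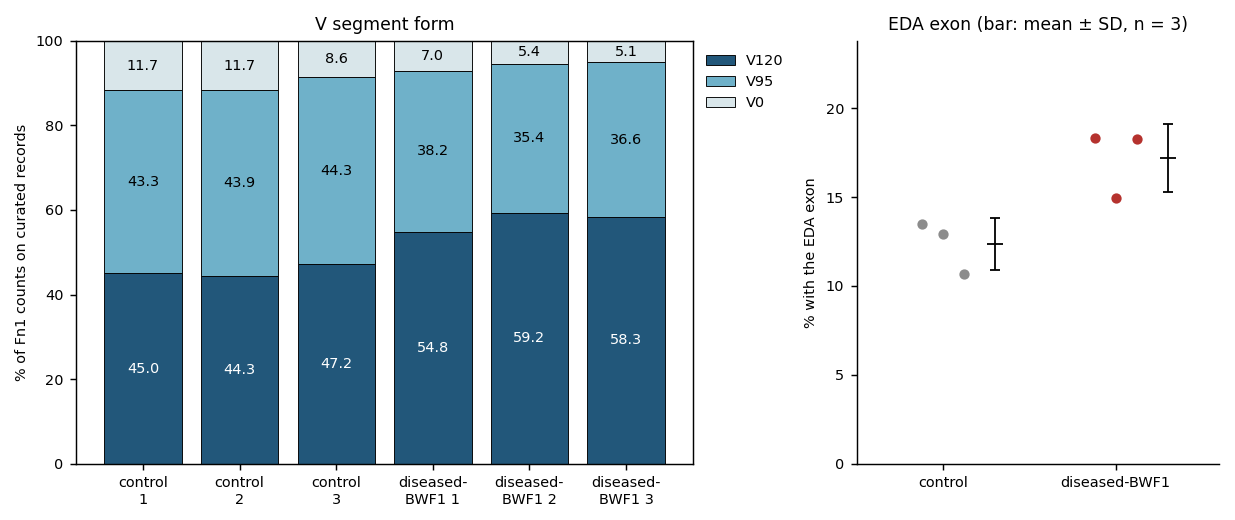
Left, the share of curated Fn1 counts in V120, V95 and V0 forms for each mouse, stacked to 100% with the values printed in the bars. Right, the share with the EDA exon, 1 point per mouse, with the mean ± SD (n = 3). V120 takes 44.3% to 47.2% in control and 54.8% to 59.2% in diseased-BWF1 mice.

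Prg4 encodes lubricin, a mucin-like proteoglycan that lubricates joints and serosal surfaces (chr1:150449412-150466165, minus strand). Normalized counts were 59043, 66048 and 61005 in control mice and 66430, 93059 and 69232 in diseased-BWF1 mice. All 3 diseased-BWF1 values lay above the controls, the lowest by a small margin and that of mouse 2 by a wide one. The log2 fold change was 0.29 ± 0.19 (SE), and edgeR's quasi-likelihood test gave an adjusted p of 0.566. Usage of its 5 tested records did not pass in edgeR's diffSpliceDGE, with an adjusted p of 0.9999, and predicted record XM_006529966.1 held 75.6% to 85.6% of its counts in each mouse.

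Ecm1 encodes extracellular matrix protein 1, a secreted glycoprotein (chr3:95734147-95739569, minus strand). Control mice had 9417, 10152 and 12682 normalized counts and diseased-BWF1 mice 8600, 12381 and 10568. The groups overlapped throughout their range, and the log2 fold change was -0.04 ± 0.20 (SE, adjusted p = 0.961 by edgeR's quasi-likelihood test). Record NM_007899.2 held 68.8% to 73.1% of Ecm1 counts and NM_001252653.1 held 26.0% to 28.9%, with overlapping groups for both.

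Ltbp1 encodes a latent TGF-β binding protein, which ties the latent growth factor to the matrix (chr17:75005568-75392512, plus strand). Normalized counts were 1903, 2174 and 3889 in control mice and 2094, 2242 and 1844 in diseased-BWF1 mice. Control mouse 3 lay well above the other 5, which were close together. The log2 fold change was -0.37 ± 0.28 (SE, adjusted p = 0.628 by edgeR's quasi-likelihood test), and 0.02 without that mouse.

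Ltbp1 counts were next read record by record. The gene has a long form, whose GENCODE transcript starts at chr17:75005568, and a short form, which starts 173242 bases further downstream at chr17:75178810. The short-form record NM_206958.2 had 170, 33 and 265 counts in control mice, which was 7.39%, 1.56% and 7.82% of the gene. It had 0 counts in all 3 diseased-BWF1 mice, where a floor of 3 counts would be 0.135% to 0.164% of the gene's counts. That floor does not bound the short form itself, since Salmon divides reads between overlapping records. The long-form record NM_019919.3 had 46, 163 and 23 counts in control and 234, 213 and 186 in diseased-BWF1 mice. As shares of the gene these were 2.00%, 7.71% and 0.679% against 10.6%, 9.62% and 10.2%. Thus the share of this long-form record was higher in every diseased-BWF1 mouse than in any control mouse. Control mouse 2, the control with the fewest counts on the short-form record, came nearest. Most counts lay on predicted record XM_006524353.2 in both groups, at 83.1% to 89.3% in control and 76.3% to 82.6% in diseased-BWF1 mice, and the start of that record was not analysed here.

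By diffSpliceDGE, usage of Ltbp1 records had a Benjamini-Hochberg adjusted p of 0.0105 for the gene and 0.0208 for NM_206958.2, against 0.0622% of 11259 records passing. With 0 counts in every diseased-BWF1 mouse, NM_206958.2 passed the filter on low counts only through its control group. The gene passed in 1 of the 6 fits that left out a mouse, the one without control mouse 2 (adjusted p = 0.00332), and the others gave 0.0952 to 0.255. Restricted to records with at least 5% of their gene, which removes NM_206958.2, it gave 0.524.

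**Figure D4:**
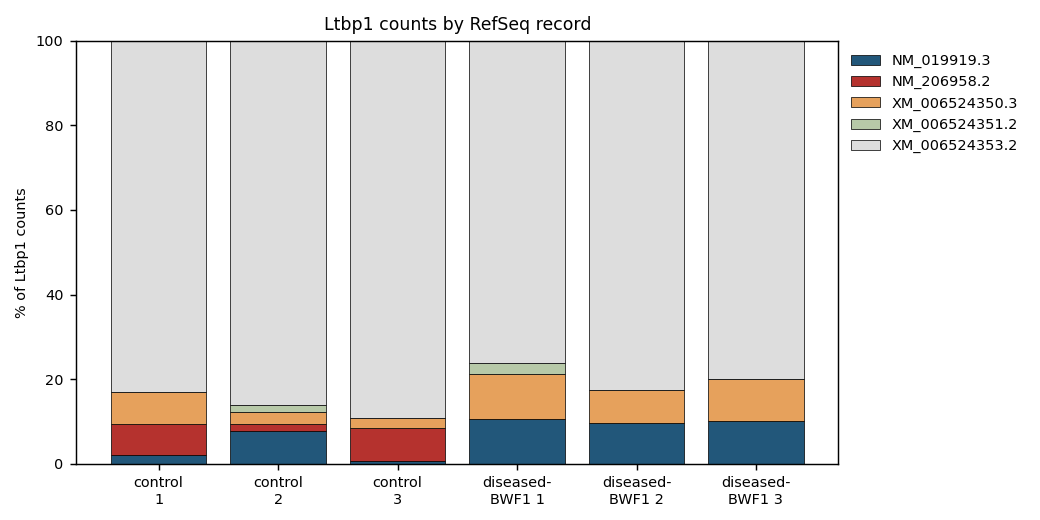
Share of Ltbp1 counts on each RefSeq record for each mouse, stacked to 100%, with records over 1% in some mouse shown. The short-form record NM_206958.2 is seen in the 3 control mice and has no counts in the 3 diseased-BWF1 mice, where the long-form record NM_019919.3 holds 9.62% to 10.6%.

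Mmp14 encodes MT1-MMP, a metalloproteinase anchored in the plasma membrane that cleaves fibrillar collagen and fibronectin and, in a complex with TIMP2, activates the MMP2 proenzyme. The gene lies at chr14:54431612-54445364 on the plus strand and overlaps no other annotated gene, and all its counts fell on 1 curated record. The libraries held 7, 12 and 5 counts in control mice and 83, 52 and 88 in diseased-BWF1 mice. As normalized counts these were 5.79, 12.3 and 5.74 against 78.4, 52.7 and 88.8. The lowest diseased-BWF1 mouse was thus several times above the highest control mouse. Means were 7.96 ± 3.80 and 73.3 ± 18.6 (SD, n = 3), with a fitted fold of 9.11 (log2 fold change 3.19 ± 0.37 SE) and an adjusted p of 0.0168 in edgeR's quasi-likelihood test. Mmp14 passed the filter on low counts only through its diseased-BWF1 group.

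The size of the Mmp14 difference was stable, and its call was near the threshold. Leaving out each mouse in turn gave log2 fold changes of 2.97 to 3.64 and adjusted p-values of 0.0352 to 0.0708 by edgeR's quasi-likelihood test, with the call kept in 2 of 6 fits, those without control mouse 2 and without diseased-BWF1 mouse 2. DESeq2 gave an adjusted p of 1.76e-08 and limma-voom of 0.0367. The call was lost with curated mRNA records alone and with the replicate number as a block. Each gave an adjusted p of 0.0595 by edgeR's quasi-likelihood test. With a filter of at least 10 counts in every library Mmp14 was not tested. Even in the diseased-BWF1 mice Mmp14 stayed a low transcript, at 5.95 CPM per kilobase against 0.648 in control mice. Timp2 transcripts exceeded those of Mmp14 per kilobase by 561 to 1087 times in control mice and by 55.8 to 109 times in diseased-BWF1 mice.

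As Mmp14 was the gene called, the 250 bases before its RefSeq start are shown (chr14:54431348-54431597, plus strand, GRCm38.p6). Capitals mark a run with 2 GC box matches (GGGCGG), which begin 19 and 13 bases before the start, and 1 overlapping match to the Egr motif GCGNGGGCG. Both strands were searched.
Mmp14 promoter: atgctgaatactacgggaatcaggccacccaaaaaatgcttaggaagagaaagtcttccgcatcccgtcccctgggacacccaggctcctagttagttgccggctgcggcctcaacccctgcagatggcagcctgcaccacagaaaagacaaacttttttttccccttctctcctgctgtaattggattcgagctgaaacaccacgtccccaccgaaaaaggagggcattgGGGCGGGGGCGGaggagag
Of 32851 promoter windows of this length, 32.7% held a GC box match and 4.70% an Egr match. The window held no match to the AP-1 motif TGANTCA or to TATAAA, which 6.75% and 12.4% of windows held. These matches describe letters and not binding.

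Mmp9 encodes gelatinase B, a secreted protease that neutrophils and macrophages release (chr2:164940780-164955850, plus strand). Normalized counts were 25.6, 61.7 and 55.1 in control and 29.3, 23.3 and 96.8 in diseased-BWF1 mice. The highest and the lowest value both came from diseased-BWF1 mice, and no direction could be read, with a log2 fold change of 0.07 ± 0.58 (SE, adjusted p = 0.979 by edgeR's quasi-likelihood test) that turned negative in 5 of 17 alternative fits.

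Mmp19 encodes a secreted metalloproteinase that cleaves basement membrane proteins (chr10:128790910-128800824, plus strand). Its counts were low but present in every mouse, at 221, 171 and 273 normalized counts in control and 157, 148 and 204 in diseased-BWF1 mice. The groups overlapped through control mouse 2, and the log2 fold change was -0.39 ± 0.21 (SE, adjusted p = 0.484 by edgeR's quasi-likelihood test). Mmp12 encodes macrophage elastase (chr9:7344381-7369499, plus strand), and 2, 1 and 1 counts were found in control and 0, 0 and 0 in diseased-BWF1 mice. All values of Mmp12 lay under the floor of 3 counts, so neither expression nor a difference was detectable at this depth.

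The 2 inhibitors differed from each other in level by far more than the groups did. Timp2 (chr11:118301069-118355740, minus strand) had 7212, 7937 and 7095 normalized counts in control and 5422, 6558 and 5677 in diseased-BWF1 mice. Every diseased-BWF1 mouse lay below every control mouse. Means were 7414 ± 456 and 5886 ± 596 (SD, n = 3), the log2 fold change was -0.34 ± 0.14 (SE) and the adjusted p was 0.379 by edgeR's quasi-likelihood test, which did not pass. Timp1 (chrX:20870166-20874735, plus strand), which many cells induce in inflammation, had 0, 0 and 1 counts in control and 1, 1 and 0 in diseased-BWF1 mice and was not detectable above the floor.

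Several of these genes overlap another annotated gene, namely Fn1 with Apol7d, Prg4 with Tpr, Ecm1 with Mir7014, Ltbp1 with Gm6276, Mmp12 with Mmp1b, Mmp19 with Gm47093 and Tmem198b, Timp1 with Syn1 and Timp2 with Cep295nl. The library kit keeps strand, and whether Salmon was set to use it is not given in the sources used here.

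The partners of these genes were read from 11 lists of matrix genes, with 271 genes in all. Of these, 77 passed the low-count filter and 71 had no count in any mouse. By edgeR's quasi-likelihood test 3 were called higher (Col22a1, Matn4 and Itga5) and 2 lower (Mmp27 and Crtap), against 1.22% of all genes tested called in either direction. The median log2 fold change of the 77 genes was 0.00, with 39 positive and 38 negative.

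Among the other 19 metalloproteinases, 2 were tested and 7 had no count. Mmp27, a matrix metalloproteinase encoded in the Mmp gene cluster of chromosome 9, fell from 38.9, 50.4 and 104 normalized counts in control mice to 5.67, 5.06 and 9.08 in diseased-BWF1 mice. Its fitted log2 fold change was -3.26 ± 0.48 (SE, adjusted p = 0.0324 by edgeR's quasi-likelihood test), and Mmp27 passed the filter on low counts only through its control group. Mmp2, the gelatinase that MT1-MMP activates, had 8.27, 15.4 and 6.89 against 15.1, 3.04 and 4.03 normalized counts and was not tested. Mmp8 and Mmp13, the collagenases, had at most 4.59 normalized counts in any mouse, and Timp3, one of 5 other inhibitor genes of which 0 passed the filter, at most 1.01. Of the 11 tested ADAM and ADAMTS genes none was called. The sheddase gene Adam15 had 2333 to 2797 normalized counts over all mice, and Adam8 had log2 fold change -1.19 ± 0.50 (SE, adjusted p = 0.370 by the same edgeR quasi-likelihood test).

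Of the 44 collagen genes 6 were tested and 1 was called. Col22a1, which encodes a collagen of tissue junctions, had 0 counts in all 3 control mice and 101, 168 and 72 in diseased-BWF1 mice. Set against a floor of 3 counts per control library, it was at least 37.5-fold higher, with an adjusted p of 0.0192 by edgeR's quasi-likelihood test. Col23a1, a transmembrane collagen gene, had log2 fold change -1.47 and an adjusted p of 0.131 by that edgeR test, and Col20a1 had 53.0 to 81.2 normalized counts with overlapping groups. Among the 6 tested basement membrane genes none was called, and the laminin chain genes Lama3 and Lamc1 had log2 fold changes of -1.37 and -0.30, for which edgeR's quasi-likelihood test gave adjusted p-values of 0.128 and 0.595.

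Of the 9 tested glycoprotein and matricellular genes, Matn4 was called higher. This gene for matrilin 4, an adaptor of matrix filaments, went from 2, 2 and 2 counts to 19, 13 and 14, with log2 fold change 2.86 ± 0.44 (SE, adjusted p = 0.0364 by edgeR's quasi-likelihood test), and the control counts lay under the floor. Like Mmp14, it passed the filter on low counts only through its diseased-BWF1 group, as did Col22a1. The abundant genes Emilin2 and Tgfbi were lower in every diseased-BWF1 mouse than in any control mouse without passing the test, with log2 fold changes of -0.53 and -1.04 (adjusted p = 0.254 and 0.169, edgeR's quasi-likelihood test). Of all genes tested, 11.2% were lower without overlap. The thrombospondin gene Thbs1, named after its values were seen, had 448, 809 and 2302 normalized counts in control and 6787, 13559 and 5510 in diseased-BWF1 mice and an adjusted p of 0.103 by that edgeR test.

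Among 24 genes of collagen processing, 13 were tested and Crtap was called lower. Crtap, part of the complex that hydroxylates a proline of collagen chains, had 422, 573 and 625 normalized counts in control and 266, 290 and 239 in diseased-BWF1 mice. The groups were well apart, with log2 fold change -1.03 ± 0.18 (SE, adjusted p = 0.0480 by edgeR's quasi-likelihood test). P4hb and Plod3, which encode enzymes of the same pathway, had log2 fold changes of 0.04 and 0.16 and were not called. None of the 3 tested proteoglycan genes and none of the 4 tested genes of the TGF-β list was called, with log2 fold changes of -0.02 for Srgn, -0.04 for Tgfb1 and 0.21 for Tgfb2.

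Of 17 tested matrix receptor genes 1 was called. Itga5, which with Itgb1 forms the main fibronectin receptor, rose from 114, 117 and 109 normalized counts in control mice to 239, 285 and 437 in diseased-BWF1 mice. The lowest diseased-BWF1 mouse lay above the highest control mouse, with log2 fold change 1.49 ± 0.23 (SE, adjusted p = 0.0363 by edgeR's quasi-likelihood test). Its partner Itgb1, at 6107 to 7441 normalized counts, had log2 fold change 0.02. Itgav, a subunit gene of another fibronectin receptor, had 0.34 (adjusted p = 0.544 by the same edgeR quasi-likelihood test). Cd44, Itga6 and Sdc3 had log2 fold changes of 0.11, -0.08 and -0.10. Of the 6 tested genes of metalloproteinase activation none was called, with log2 fold changes of 0.06 for Furin, which cleaves the MT1-MMP proenzyme, -0.01 for Plaur and -0.25 for Serpinb2.

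The list genes differed in how well their calls held with fewer mice. With each mouse left out in turn, edgeR's quasi-likelihood test kept Col22a1 in 4 of 6 fits, Itga5, Mmp27 and Crtap in 1 each and Matn4 in 0, while every fold change kept its sign. Without diseased-BWF1 mouse 3, Itga5 was kept, and without control mouse 1, Mmp27 and Crtap were kept. Adjusted p-values in these fits reached 0.168 for Crtap. With all 6 mice, limma-voom lost Matn4 (adjusted p = 0.0592), Mmp27 (0.109) and Crtap (0.0570), and age as a covariate in edgeR's quasi-likelihood test lost Matn4 (adjusted p = 0.0677), Mmp27 (0.0507) and Crtap (0.0528). Curated mRNA records alone lost Col22a1 (edgeR's adjusted p = 0.0595), Itga5 (0.111), Mmp27 (0.152) and Crtap (0.117) and left Matn4 untested. At 10 counts in every library Col22a1, Matn4 and Mmp27 were not tested. The replicate number as a block lost Matn4 (edgeR's adjusted p = 0.114), Itga5 (0.0725) and Crtap (0.107) and kept Col22a1 and Mmp27.

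**Figure D5:**
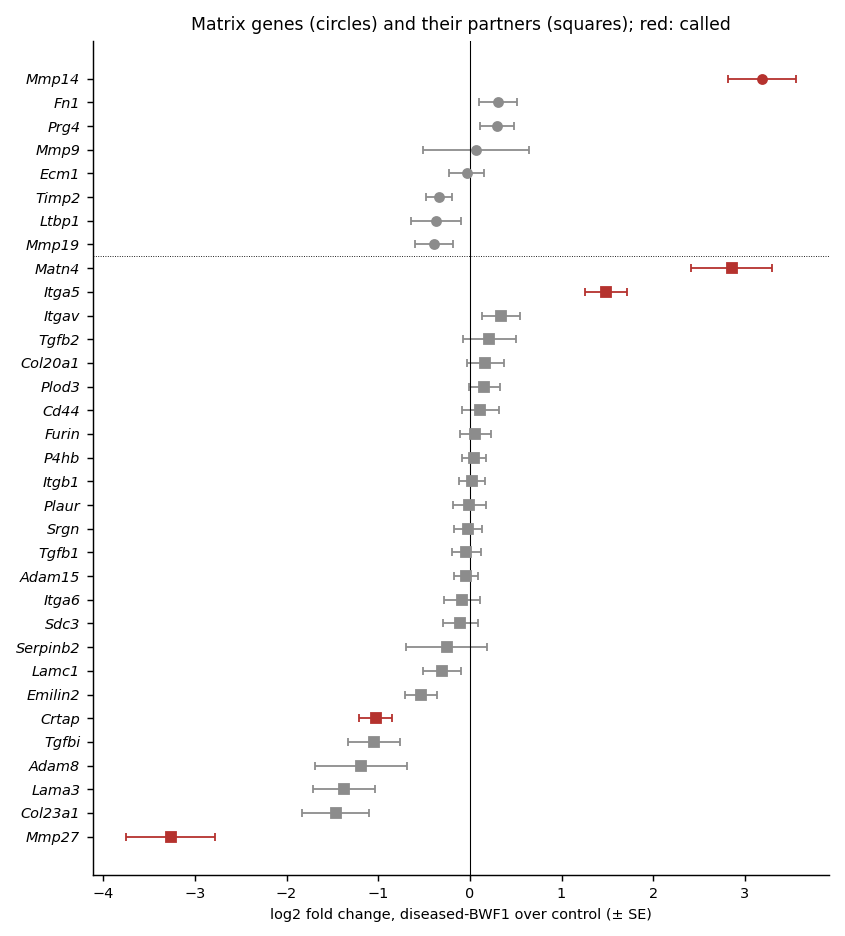
Log2 fold change of diseased-BWF1 over control mice with its SE, for the 8 tested matrix genes (circles) and 25 named partner genes (squares), with called genes in red. Mmp14, at 3.19, stands apart from the other 7 circles, which lie between -0.39 and 0.31. Col22a1 is left out because its control mice had no counts, as are 4 partner genes too low to test.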

How the data were processed

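RNA of sorted PMs from 3 control and 3 diseased-BWF1 mice was sequenced by the authors as paired-end reads of KAPA Stranded mRNA libraries. The submitters' processing notes name Salmon 0.8.0, DESeq2 and GRCm38.p6. The deposited values are estimated counts per RefSeq record, already whole numbers and not normalized, so they entered the count test as they were. Records were matched to genes in a RefSeq table of GRCm38.p6 (45754 by the same version, 40712 by another, 20727 not matched and left out) and summed per gene. Counts per library were 3629901 to 5003360, and precision is limited by these depths and by 3 mice a group.

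Groups were compared in R 4.3.3 with edgeR 4.0.16 (filterByExpr, TMM, glmQLFit, glmQLFTest), Benjamini-Hochberg adjustment over 10505 genes, and a call below an adjusted p of 0.05 when the change was 1.5-fold or more. No covariate was used. Normalized counts used size factors of DESeq2 1.42.0, with exact two-sided permutation tests for single values. Record usage was tested with diffSpliceDGE. Lengths, positions and Fn1 and Ltbp1 transcripts came from GENCODE vM21 (GRCm38). Promoter windows came from RefSeq and were found for Ecm1, Ltbp1, Mmp12, Mmp14, Timp1 and Timp2. The other genes named were those called in each of 11 lists, the 2 with the highest counts per kilobase in each, and 10 partners of the matrix genes, up to 30. The members and lists were chosen with earlier results of these data known. The scripts were tested on simulated data. Alternatives were DESeq2, limma-voom (limma 3.58.1), other normalizations and filters, curated records, no fold threshold, age, the replicate number as a block, and each mouse left out. One sorting marker and the marker list that holds it are not reported here.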

Additional observations from a re-analysis of the deposited data

How the results depend on the processing

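The main counts were 42 genes called higher and 86 lower over all genes, 1 and 0 among the 10 matrix genes, and 3 and 2 among the list genes. DESeq2 called 133 and 239 genes, and 9 and 8 list genes. With no low-count filter these were 89, 170, 9 and 4. With at least 10 counts in every library they were 27, 57, 1 and 1, with 0 matrix genes since Mmp14 was not tested. Curated mRNA records alone gave 9, 7, 0 and 0, with Mmp14 at an adjusted p of 0.0595 in edgeR's quasi-likelihood test and 0 matrix genes called. List genes called lower numbered 0 with limma-voom and 1 with upper quartile normalization and with library totals alone, which kept Mmp27. Age as a covariate called 53 genes lower and 1 list gene lower, Lama3, which the main fit did not call. Lama3 was also called by DESeq2, with no low-count filter and without diseased-BWF1 mouse 3. Col23a1 and Tgfbi, not called in the main fit, were called lower by DESeq2 (adjusted p = 0.0102 and 0.0115). With no low-count filter Col23a1 was called lower too (adjusted p = 0.0341 by edgeR's quasi-likelihood test). Leaving out each mouse gave 11 to 22 higher and 10 to 29 lower calls, 0 to 1 for the matrix genes, and 0 to 2 for list genes in each direction. Genes with changed record usage numbered 50, and 3 to 44 with a mouse left out, Ltbp1 usage had adjusted p-values of 0.00332 to 0.255 (0.524 with records of at least 5% of their gene) and Fn1 usage of 0.0105 to 0.738. The cause was not tested. The 4 Fn1 share differences kept their direction, with V120 at 11.02 to 13.3 percentage points and EDA at 3.98 to 5.93.

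The replicate number as a block gave 18 and 20 calls over all genes, 0 matrix genes (Mmp14 adjusted p = 0.0595 in edgeR's quasi-likelihood test), 1 list gene lower (Mmp27, with Itga5 at 0.0725, Matn4 at 0.114 and Crtap at 0.107), 0 genes with changed record usage and 0.332 for Ltbp1 usage. Same-numbered mice deviated together with correlations of 0.117, 0.00556 and 0.157, against -0.144 to 0.0573 between mice of different numbers. Not every mouse correlated best with its own number. With 3 mice a group, these correlations cannot decide whether the numbers pair the mice.

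Of 572 fold changes of 34 genes under 17 alternatives, 36 changed sign, all of uncalled genes. On the log2 scale Mmp9 was at -0.083 with limma-voom, -0.14 with age and -0.088 with the replicate block. With library totals alone Adam15 was at 0.00105, Ecm1 at 0.0078, Srgn at 0.023, Tgfb1 at 0.0073 and Plaur at 0.035. Curated records alone gave Furin -0.053, Sdc3 0.29 and Plaur 0.012, limma-voom gave Plaur 0.0038 and the block 0.0021. With a mouse left out in turn, the fold changes that turned ranged from -0.84 to 0.41 for Mmp9, -0.16 to 0.103 for Ecm1, -0.57 to 0.016 for Ltbp1, -0.098 to 0.023 for Adam15, -0.11 to 0.098 for Srgn, -0.11 to 0.077 for Tgfb1, -0.046 to 0.37 for Tgfb2, -0.11 to 0.16 for Plaur, -0.26 to 0.0074 for Sdc3, -0.090 to 0.20 for Furin, -0.014 to 0.089 for P4hb, -0.052 to 0.057 for Itgb1, -0.25 to 0.012 for Itga6, -0.88 to 0.044 for Serpinb2 and -0.034 to 0.29 for Cd44.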
